A study of Homo sapiens with 27 samples.

Results

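The ATP-binding cassette (ABC) transporter genes described here are those whose symbol is ABC, then A, B, C, D or G, then digits only, without ABCA1 and ABCG1. Of 21487 genes in the count table, 39 met that rule: 11 of subfamily A, 9 of B, 11 of C, 4 of D and 4 of G. PolyA RNA was sequenced from Panc1, an established human pancreatic ductal adenocarcinoma line, in 9 groups of 3 libraries. The cells were ARNT knockout clone A, ARNT knockout clone B and parental control cells. Each was kept for 48 hours in normoxia (20% O2) in regular medium, in hypoxia (1% O2) in regular medium, or in hypoxia in pancreatic TIFM, a medium modelled on tumor interstitial fluid. Regular medium was DMEM with FBS and penicillin and streptomycin. The knockouts were made with CRISPR-Cas9, and each knockout genotype is a single clone, so loss of ARNT and the history of a clone cannot be told apart. TIFM was given only under hypoxia. The series asks how ARNT affects the response of these cells to hypoxia.

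ABC transporters are membrane proteins that use ATP to move substrates across a membrane. ABCB1, ABCC1 and ABCG2 are the classic drug efflux pumps of cancer cells. Subfamily A moves mostly lipids, subfamily C mostly organic anions and conjugates, and subfamily D brings fatty acids into peroxisomes, except ABCD4, which handles vitamin B12 in lysosomes. ARNT is the shared partner of HIF1A, EPAS1 and AHR. HIF dimers bind DNA at ACGTG or GCGTG cores, and the AHR dimer binds at GCGTG.

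Promoters are printed for ABCG2, ABCC2 and ABCA3, which were lower in both clones in all 3 conditions, and for ABCA10, which was higher in hypoxia in all 3 genotypes. ABCC1, the other gene lower in both clones throughout, is named only. Each window runs from 250 bases before to 50 bases after the RefSeq start in GRCh38.p14, 5′ to 3′ on the gene's strand. The windows are chr4:88158590-88158889 (minus strand), chr10:99782390-99782689 (plus strand), chr16:2340679-2340978 (minus strand) and chr17:69228775-69229074 (minus strand), in the order printed. Capitals mark ACGTG or GCGTG, or CACGT or CACGC where the core is on the other strand.
ABCG2: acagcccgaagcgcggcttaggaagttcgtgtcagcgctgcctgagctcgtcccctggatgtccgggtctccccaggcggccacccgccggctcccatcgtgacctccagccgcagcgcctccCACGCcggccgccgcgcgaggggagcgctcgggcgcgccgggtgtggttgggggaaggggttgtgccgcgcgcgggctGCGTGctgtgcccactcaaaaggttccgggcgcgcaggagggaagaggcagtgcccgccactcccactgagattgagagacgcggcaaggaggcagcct
ABCC2: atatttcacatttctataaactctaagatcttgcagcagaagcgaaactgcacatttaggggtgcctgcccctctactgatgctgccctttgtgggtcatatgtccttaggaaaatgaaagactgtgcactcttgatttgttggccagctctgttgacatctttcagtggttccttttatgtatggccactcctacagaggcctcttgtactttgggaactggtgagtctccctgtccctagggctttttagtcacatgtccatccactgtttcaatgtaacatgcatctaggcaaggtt
ABCA3: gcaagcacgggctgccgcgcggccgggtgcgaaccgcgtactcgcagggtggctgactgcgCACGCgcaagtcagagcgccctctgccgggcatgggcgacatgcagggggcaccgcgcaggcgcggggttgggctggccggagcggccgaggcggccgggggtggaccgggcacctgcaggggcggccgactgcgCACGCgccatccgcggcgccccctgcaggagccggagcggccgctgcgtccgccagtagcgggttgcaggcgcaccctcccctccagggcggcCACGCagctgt
ABCA10: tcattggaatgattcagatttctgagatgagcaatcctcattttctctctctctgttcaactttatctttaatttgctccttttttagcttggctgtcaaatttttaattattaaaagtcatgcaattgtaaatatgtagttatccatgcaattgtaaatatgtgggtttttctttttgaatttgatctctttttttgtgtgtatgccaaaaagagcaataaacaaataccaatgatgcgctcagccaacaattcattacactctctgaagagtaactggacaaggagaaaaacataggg
The ABCG2 window held 2 GCGTG cores and the ABCA3 window 3, while those letters were not in the ABCC2 or ABCA10 window. ABCA3 also held 1 match to TGACNNNGC, the core of the antioxidant response element, searched on both strands. The GC content was 72% for ABCG2, 78% for ABCA3, 45% for ABCC2 and 32.3% for ABCA10. Of the members, 30 had a promoter in the table, and 20 of these (66.7%) held ACGTG or GCGTG, against 48.4% of all 35116 promoters of that length. ACGTG was in 26.7% of member promoters and 21.4% of all. GCGTG was in 43.3% of member promoters and 36.5% of all, and TGACNNNGC in 26.7% and 13.3%. These are matches of letters, not measured binding sites. The ABCG2 and ABCA10 windows lie inside longer annotated gene spans, which reach chr4:88231322 and chr17:69244846. Starts further out were not searched.

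Libraries held 26057022 to 38341713 counts. The labels do not tell whether the 3 replicates came from separate cultures, and the tests therefore cover the spread among libraries, which may be technical. That spread was widest in TIFM: the biological coefficient of variation was 29.3% in clone A, 17.3% in clone B and 17.4% in parental cells there, against 4.52% to 12.7% in the other groups. ARNT transcripts were present at 75.5 ± 2.19 CPM in clone A, 63.9 ± 1.44 CPM in clone B and 71.2 ± 3.62 CPM in parental cells in normoxia, which does not check an edit of the coding sequence. CPM are counts per sequenced total, scaled between libraries. All 7 ductal markers were detected, and their sum in normoxia was 2363 to 2628 CPM in clone A, 6019 to 6581 CPM in clone B and 6499 to 8923 CPM in parental cells. In TIFM it was 964 to 2096 CPM in clone A, 1073 to 2067 CPM in clone B and 2972 to 3566 CPM in parental cells. CDH1, the epithelial adhesion gene, had 1.62 ± 0.256 CPM in clone A, 1.26 ± 0.123 CPM in clone B and 60.0 ± 1.37 CPM in parental cells in normoxia (SD, n = 3). Against parental cells in normoxia, clone A had 1 of the 7 higher (EPCAM) and 5 lower, by edgeR at an adjusted p under 0.05. Clone B had 0 higher and 1 lower, which was CDH1. Of all genes, 15.9% were higher and 15.8% lower in clone A, and 13.2% and 13.3% in clone B. The 11 markers of acinar, islet, liver, blood and endothelial cells summed to at most 9.83 CPM in a library, and INS was at 0 in all. The part of these marker differences in the results below was not tested. In bulk RNA, fewer cells with a transcript and less of it per cell cannot be told apart.

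Of the 39 members, 25 passed the filter on low counts. Levels of different genes are compared per length, in RPKM (CPM per kilobase of exon). In parental cells in normoxia the highest was ABCC1, an exporter of drugs and glutathione conjugates, at 62.6 ± 0.943 RPKM (SD, n = 3). ABCG2, a pump of drugs and urate, followed at 25.6 ± 0.0714 RPKM and ABCC4, which exports cyclic nucleotides, at 20.1 ± 1.26 RPKM. The mitochondrial ABCB10 had 13.9 ± 0.451 RPKM and the peroxisomal ABCD3 13.2 ± 0.987 RPKM, which lay within their spread. The lipid carrier ABCA3 had 7.59 ± 0.713 RPKM, the conjugate exporter ABCC3 6.78 ± 0.339 RPKM and the nucleotide exporter ABCC5 5.39 ± 0.379 RPKM. Below these, in order of level, were ABCC10, ABCB8, ABCB9, ABCA7, ABCC2, ABCD4, ABCA2, ABCA5, ABCA4, ABCA12, ABCC6, ABCA13, ABCA10, ABCC11 and ABCG4, the last at 0.0127 ± 0.00741 RPKM.

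The 14 members that were not tested were ABCA6, ABCA8, ABCA9, ABCB1, ABCB11, ABCB4, ABCB5, ABCB6, ABCC12, ABCC8, ABCC9, ABCD2, ABCG5 and ABCG8. Their highest value in a library was 0.852 CPM, for ABCG8. ABCB1, the gene of P-glycoprotein, ranged from 0.0595 to 0.405 CPM and had 186 counts over all 27 libraries. ABCB6 was listed at 0 in every library, and 54.7% of its exon length overlaps another listed gene, so its level is uncertain. Overlap with other genes also touches ABCB9 (24.5% of exon length), ABCD4 (7.12%), ABCC11 (5.23%) and ABCA10 (3.78%, with ABCA5), whose values are uncertain to that degree. ABCC6 has close pseudogene copies, and its counts are uncertain too.

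ABCG2 was far lower in both ARNT knockout clones than in parental cells. The gene lies on chromosome 4 at 88090264 to 88231322, minus strand (GRCh38). In normoxia it had 1.20, 1.12 and 0.988 CPM in clone A, 1.97, 1.57 and 3.14 CPM in clone B, and 129, 129 and 129 CPM in parental cells. In hypoxia it had 0.998, 1.39 and 1.19 CPM in clone A, 2.09, 1.55 and 1.46 CPM in clone B, and 85.8, 90.3 and 86.0 CPM in parental cells. In TIFM it had 1.57, 0.999 and 1.09 CPM in clone A, 1.91, 2.02 and 1.51 CPM in clone B, and 35.1, 27.3 and 37.0 CPM in parental cells. Every clone library was below every parental library of its condition. In normoxia the mean level was 0.857% of the parental mean for clone A and 1.73% for clone B.

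The log2 difference of ABCG2 from parental cells in normoxia was −6.87 ± 0.22 for clone A and −5.85 ± 0.20 for clone B (SE; edgeR adjusted p = 2.36e-18 and 1.06e-17). In hypoxia it was −6.19 ± 0.21 for clone A and −5.68 ± 0.20 for clone B (adjusted p = 1.02e-17 and 3.83e-17). In TIFM it was −4.73 ± 0.21 for clone A and −4.18 ± 0.20 for clone B (adjusted p = 1.13e-15 and 5.48e-15). Over the fits that left out 1 library, these 6 differences ranged from −6.93 to −4.07.

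**Figure D1:**
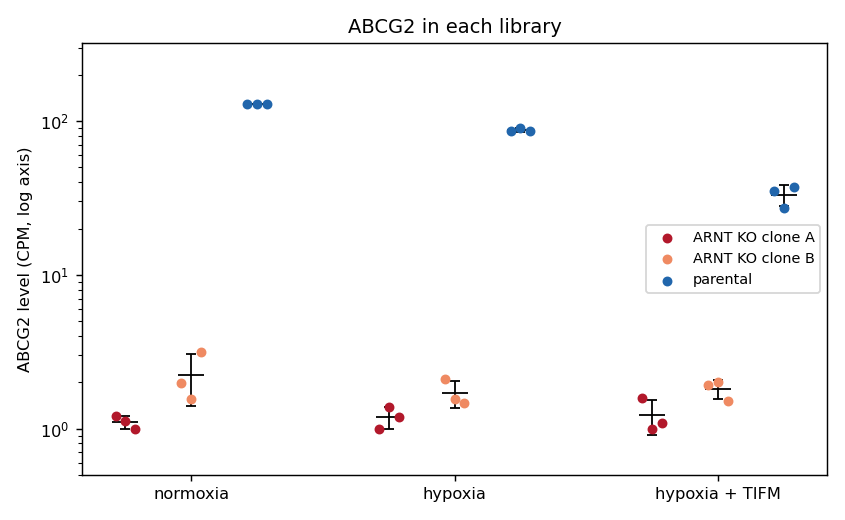
ABCG2 level in CPM (log axis) in each of the 27 libraries, by condition, with clone A, clone B and parental cells side by side. Points are libraries, and bars give the mean and SD of 3. Clone libraries lie between 0.988 and 3.14 CPM and parental libraries at 27.3 CPM or more.

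Of 14 other listed genes within 500 kb of ABCG2, 6 were tested, in a window chosen after values were seen. In normoxia clone A had 2 of them lower, HERC5 (−1.02) and FAM13A (−1.36), and clone B had 2 higher, PPM1K (1.41) and FAM13A (0.89). Beside these, 15.8% of all genes were lower in clone A and 13.2% higher in clone B. PKD2, the nearest at 12.5 kb, had −0.61 for clone A and −0.60 for clone B and was not called (adjusted p = 0.0658 and 0.0836).

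In normoxia 2 members were higher and 10 lower in clone A than in parental cells, where 15.9% of all genes were higher and 15.8% lower. Clone B had 1 member higher and 7 lower, where 13.2% of all genes were higher and 13.3% lower. The median log2 difference of the members was −0.28 for clone A and −0.01 for clone B, beside 0.04 and 0.01 over all genes. Lower in both were ABCA3, ABCA7, ABCA13, ABCC1, ABCC2, ABCC4 and ABCG2, which is 7 of 10 lower in clone A and 7 of 7 in clone B. Both clones were set against the same parental libraries. The share of all genes called in both clones was not computed, here or in the conditions below. Such overlaps are therefore not measured against a background.

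Among the C subfamily, ABCC2, the apical exporter of conjugated bilirubin and drugs, was reduced most. It had 0.976, 1.38 and 1.16 CPM in clone A, 2.68, 2.54 and 2.19 CPM in clone B, and 10.8, 11.4 and 10.2 CPM in parental cells. Neither clone overlapped parental cells, and the differences were −3.20 ± 0.24 for clone A and −2.13 ± 0.22 for clone B (adjusted p = 7.42e-11 and 3.04e-08). ABCC1 had 297, 300.0 and 283 CPM in clone A, 348, 343 and 338 CPM in clone B, and 474, 482 and 467 CPM in parental cells. All clone libraries were again below the parental ones, with log2 differences of −0.69 ± 0.08 for clone A and −0.47 ± 0.08 for clone B (adjusted p = 6.59e-08 and 3.01e-05). ABCC4 was lower, at −0.33 ± 0.13 for clone A and −0.50 ± 0.13 for clone B. ABCC3, a basolateral exporter of glucuronides, was not called, at 0.16 ± 0.14 for clone A and 0.26 ± 0.14 for clone B.

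Among the lipid carriers, ABCA3, known for loading surfactant lipids in lung, had 37.1, 35.2 and 32.7 CPM in clone A, 27.2, 24.95 and 26.3 CPM in clone B, and 56.7, 65.6 and 55.4 CPM in parental cells. The clones lay below parental cells in every library, with log2 differences of −0.76 ± 0.12 for clone A and −1.18 ± 0.13 for clone B (adjusted p = 2.90e-05 and 4.11e-08). ABCA13, a very large member of the family, was lower, at −2.28 ± 0.23 for clone A and −0.62 ± 0.21 for clone B. ABCA7, a phospholipid carrier, was lower, at −0.46 ± 0.13 for clone A and −0.61 ± 0.13 for clone B. ABCA4, the retinoid carrier of photoreceptors, had 1.86 ± 0.460 CPM in clone A, 4.95 ± 1.01 CPM in clone B and 4.91 ± 0.0656 CPM in parental cells (SD, n = 3). It was called in clone A (−1.40 ± 0.23) and not in clone B (0.01 ± 0.21).

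Clone A also had ABCA5 (−1.01 ± 0.26) lower and ABCA10 (1.54 ± 0.45) and ABCA2 (0.40 ± 0.13) higher. Clone B also had ABCC11 higher (1.44 ± 0.50), at 0.632 ± 0.0741 CPM in clone B and 0.232 ± 0.179 CPM in parental cells. In clone A 8 of the 12 calls held whichever library was left out. ABCA2 lost its call without clone A replicate 1 or parental replicate 3, and ABCC4 lost it without any of the 6 libraries. ABCA10 lost its call without parental replicate 2 (adjusted p = 0.0652, against up to 0.158 for ABCC4). In clone B 6 of the 8 calls held. ABCC11 lost its call without each library except parental replicate 1 (adjusted p up to 0.176). ABCA13 lost its call without each library except clone B replicate 2 (adjusted p up to 0.0982). Without parental replicate 1 the ABCC11 difference was 2.22.

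**Figure D2:**
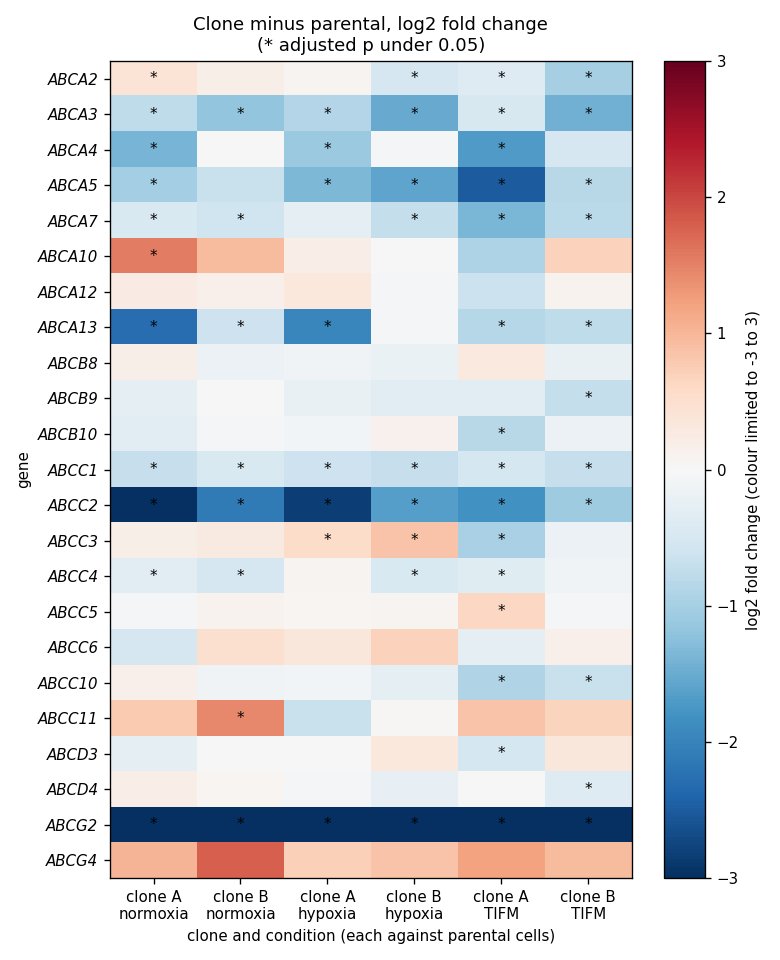
Log2 fold change of the ABC transporter genes described here (rows) in clone A and clone B over parental cells, in normoxia, hypoxia and TIFM (columns). Colour is limited to −3 to 3, and asterisks mark an adjusted p under 0.05. ABCA3, ABCC1, ABCC2 and ABCG2 are called lower in all 6 columns.

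In hypoxia 1 member was higher and 7 lower in clone A than in parental cells, beside 20.5% and 20.9% of all genes. Clone B had 1 higher and 8 lower, beside 16.9% and 19.0%. The member medians were −0.09 for clone A and −0.18 for clone B, beside 0.03 and 0.01 over all genes. ABCC3 was the member higher in both. It had 35.3, 51.0 and 46.8 CPM in clone A, 61.4, 55.4 and 49.5 CPM in clone B, and 29.6, 28.2 and 33.6 CPM in parental cells. All clone libraries were above the parental ones, with log2 differences of 0.54 ± 0.14 for clone A and 0.86 ± 0.14 for clone B (adjusted p = 0.00247 and 1.63e-05).

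ABCA3, ABCA5, ABCC1, ABCC2 and ABCG2 were lower in both clones in hypoxia. ABCC2 had 1.87, 1.83 and 1.79 CPM in clone A, 4.36, 3.42 and 4.63 CPM in clone B, and 13.2, 13.2 and 12.3 CPM in parental cells, differences of −2.82 ± 0.23 for clone A and −1.64 ± 0.21 for clone B. ABCA5, a lysosomal member linked to sterols, was lower, at −1.34 ± 0.25 for clone A and −1.59 ± 0.26 for clone B. ABCA3 was lower, at −0.88 ± 0.12 for clone A and −1.52 ± 0.13 for clone B, and ABCC1 at −0.63 ± 0.08 and −0.69 ± 0.08. Clone A also had ABCA13 (−1.97 ± 0.23) and ABCA4 (−1.12 ± 0.23) lower. Clone B also had ABCA7 (−0.72 ± 0.13), ABCA2 (−0.50 ± 0.13) and ABCC4 (−0.47 ± 0.13) lower, while ABCC4 was not called in clone A (0.07 ± 0.13). All 8 calls in clone A and all 9 in clone B held with any 1 library left out. In clone B 14 members were called with only the 6 libraries compared and 15 without the TIFM libraries.

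In TIFM 1 member was higher and 14 lower in clone A than in parental cells, beside 30.9% and 30.7% of all genes. Clone B had 0 higher and 12 lower, beside 22.1% and 25.4%. Of members higher in clone B, edgeR gave 0 at an unadjusted p under 0.05, and DESeq2 called 0. The member medians were −0.53 for clone A and −0.39 for clone B, beside −0.01 and −0.01 over all genes. Lower in both clones were 9 members, ABCA2, ABCA3, ABCA5, ABCA7, ABCA13, ABCC1, ABCC2, ABCC10 and ABCG2.

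ABCC2 in TIFM had 1.97, 1.12 and 2.57 CPM in clone A, 2.89, 2.68 and 3.93 CPM in clone B, and 7.84, 4.16 and 7.78 CPM in parental cells. Every clone library was below the parental ones, with log2 differences of −1.82 ± 0.24 for clone A and −1.06 ± 0.22 for clone B (adjusted p = 3.70e-07 and 0.000327). ABCC1 was lower, at −0.53 ± 0.08 for clone A and −0.70 ± 0.08 for clone B, and ABCA3 at −0.48 ± 0.12 and −1.44 ± 0.13. ABCC10, an exporter of lipophilic drugs, was lower, at −0.90 ± 0.15 for clone A and −0.67 ± 0.14 for clone B. The lipid carriers ABCA5, ABCA7, ABCA2 and ABCA13 were lower, at −2.50 ± 0.29, −1.37 ± 0.14, −0.38 ± 0.13 and −0.87 ± 0.27 in clone A. The same 4 were lower, at −0.84 ± 0.26, −0.81 ± 0.14, −1.0 ± 0.13 and −0.76 ± 0.26 in clone B. ABCC3 was lower in clone A (−0.97 ± 0.14, adjusted p = 2.01e-06) and not called in clone B (−0.18 ± 0.14). ABCC4 was lower in clone A (−0.36 ± 0.13) and not called in clone B (−0.11 ± 0.13).

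Clone A also had ABCA4 (−1.70 ± 0.25), ABCB10 (−0.84 ± 0.18) and ABCD3 (−0.53 ± 0.18) lower and ABCC5 (0.63 ± 0.20) higher. Clone B also had ABCB9 (−0.72 ± 0.15) and ABCD4 (−0.39 ± 0.13) lower. With only the 6 libraries compared in the fit, 9 members were called in clone A, and ABCA2, ABCA3, ABCA13, ABCC4, ABCC5 and ABCD3 lost their call. In clone B ABCA13 and ABCD4 then lost theirs. In clone A 10 of the 15 calls held with any 1 library left out. ABCA2 lost its call without clone A replicate 1 or parental replicate 1, and ABCC4 lost it without clone A replicate 2 or 3 or parental replicate 1 or 3. ABCC5 lost its call without clone A replicate 3 or parental replicate 2, and ABCD3 lost it without clone A replicate 3 or parental replicate 3. ABCA13 lost its call without parental replicate 1 (adjusted p = 0.0588, against up to 0.186 for ABCC5). In clone B 9 of the 12 calls held. ABCA13 lost its call without clone B replicate 1 or 2 or parental replicate 1, and ABCA5 lost it without clone B replicate 2 or parental replicate 1 or 3. ABCD4 lost its call without clone B replicate 3 or parental replicate 2 (adjusted p up to 0.107, against up to 0.121 for ABCA13).

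**Figure D3:**
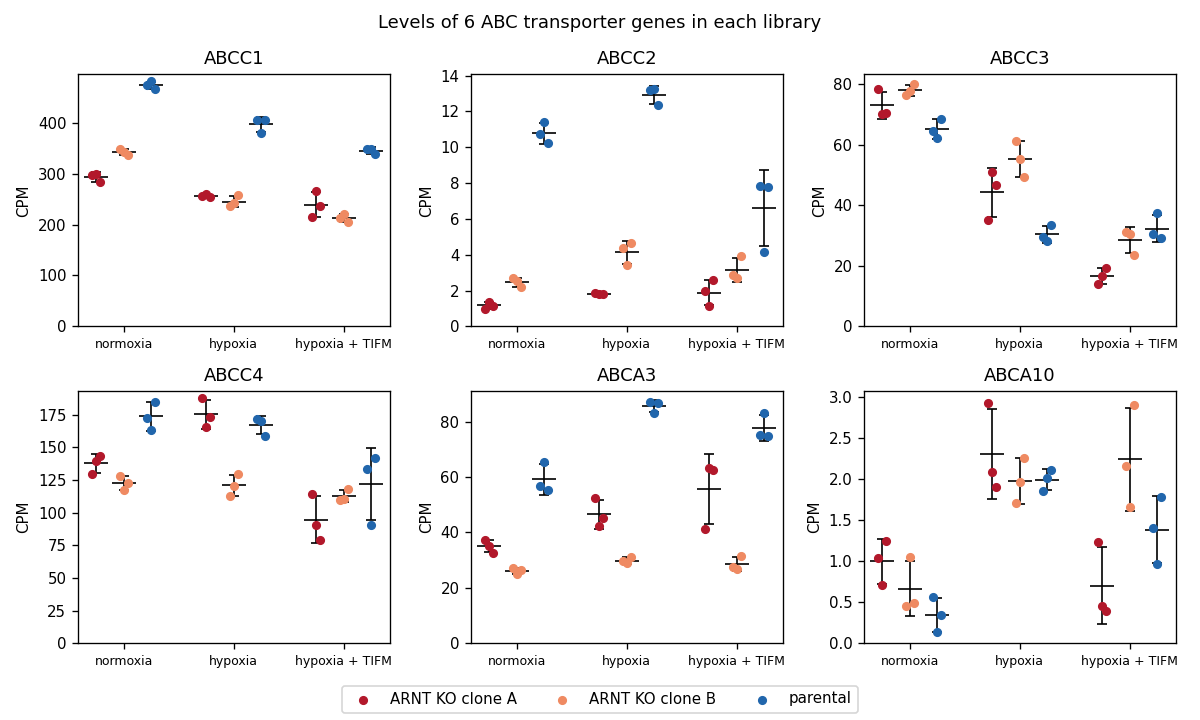
Levels in CPM of ABCC1, ABCC2, ABCC3, ABCC4, ABCA3 and ABCA10 in each library, by condition, with clone A, clone B and parental cells side by side. Points are libraries and bars the mean and SD of 3. In hypoxia ABCC3 is at 35.3 CPM or more in clone libraries and at 33.6 CPM or less in parental ones, while ABCC1 and ABCC2 are lower in the clones in each condition.

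The clones were also set against each other. In normoxia 6 members were higher and 1 lower in clone B than in clone A, beside 11.7% and 9.83% of all genes. Higher were ABCA13 (1.66 ± 0.24), ABCA4 (1.42 ± 0.23), ABCC2 (1.07 ± 0.25), ABCG2 (1.01 ± 0.22), ABCC6 (0.98 ± 0.30) and ABCC1 (0.22 ± 0.08), and lower was ABCA3 (−0.42 ± 0.12). Not called were ABCC3 (0.10 ± 0.14) and ABCC4 (−0.17 ± 0.13). In this comparison 4 of the 7 calls held with any 1 library left out, and 4 members were called without clone A replicate 1. ABCC6 lost its call without clone B replicate 1 or clone A replicate 1 or 2, and ABCC1 lost it without any of the 6 libraries. ABCA3 lost its call without clone B replicate 2 or clone A replicate 1 (adjusted p up to 0.0710, against up to 0.137 for ABCC1). With only the 6 libraries compared 18 members were called, and without the TIFM libraries 12.

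In hypoxia 3 members were higher and 4 lower in clone B than in clone A, beside 12.9% and 12.2% of all genes. Higher were ABCA13 (1.91 ± 0.23), ABCC2 (1.18 ± 0.23) and ABCA4 (1.08 ± 0.23), and lower were ABCA3 (−0.64 ± 0.12), ABCA2 (−0.58 ± 0.13), ABCC4 (−0.54 ± 0.13) and ABCA7 (−0.42 ± 0.13). Not called were ABCG2 (0.51 ± 0.23), ABCC3 (0.32 ± 0.14) and ABCC1 (−0.07 ± 0.08). All held with any 1 library left out except ABCA7. ABCA7 lost its call without clone B replicate 1 or 3 or clone A replicate 1 (adjusted p up to 0.118). Without the TIFM libraries 11 members were called.

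In TIFM 9 members were higher and 7 lower in clone B than in clone A, beside 26.7% and 29.4% of all genes. Higher were ABCA5 (1.66 ± 0.29), ABCA10 (1.62 ± 0.40), ABCA4 (1.19 ± 0.26), ABCD3 (0.87 ± 0.18) and ABCC3 (0.78 ± 0.14), and also ABCA12 (0.75 ± 0.28), ABCC2 (0.75 ± 0.25), ABCB10 (0.66 ± 0.18) and ABCA7 (0.56 ± 0.15). Lower were ABCA3 (−0.96 ± 0.13), ABCC5 (−0.68 ± 0.20), ABCA2 (−0.62 ± 0.13), ABCB8 (−0.53 ± 0.19), ABCB9 (−0.40 ± 0.15) and ABCD4 (−0.37 ± 0.13). Not called were ABCG2 (0.55 ± 0.24), ABCC4 (0.25 ± 0.13) and ABCC1 (−0.17 ± 0.08). Clone A libraries in TIFM were far apart for some of these genes, with ABCB10 at 37.9, 21.2 and 15.6 CPM and ABCC5 at 44.0, 63.8 and 98.4 CPM. With only the 6 libraries compared in the fit 6 members were called, with the calls of ABCA2, ABCA7, ABCA12, ABCB8, ABCB9, ABCB10, ABCC2, ABCC5 and ABCD4 ended, and without clone A replicate 3 in the fit 10. ABCC2 lost its call without clone B replicate 3 or clone A replicate 2, and ABCB9 lost it without clone B replicate 1 or 2 or clone A replicate 2 or 3. ABCC5 lost its call without clone B replicate 1 or clone A replicate 3, and ABCD4 lost it without clone B replicate 2 or 3 or clone A replicate 3. ABCA12 lost its call without clone B replicate 1 or clone A replicate 3, and ABCB8 lost it without clone B replicate 3 or clone A replicate 3 (adjusted p up to 0.439). Without clone A replicate 1 the ABCA10 difference was 2.37.

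In hypoxia ABCC3 was lower and ABCA10 higher than in normoxia in all 3 genotypes. Clone A had 3 members higher and 2 lower, where 10.4% of all genes were higher and 11.8% lower. Clone B had 2 higher and 2 lower, where 4.46% of all genes were higher and 4.84% lower. Parental cells had 5 higher and 4 lower, where 15.4% of all genes were higher and 14.9% lower. The member medians were 0.14 in clone A, −0.06 in clone B and −0.02 in parental cells, beside −0.01, −0.01 and −0.00 over all genes.

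In clone A ABCC3 had 35.3, 51.0 and 46.8 CPM in hypoxia, against 78.3, 70.3 and 70.4 CPM in normoxia. In clone B it had 61.4, 55.4 and 49.5 CPM in hypoxia, against 76.4, 77.9 and 80.0 CPM in normoxia. In parental cells it had 29.6, 28.2 and 33.6 CPM in hypoxia, against 64.7, 62.2 and 68.6 CPM in normoxia. Hypoxic and normoxic libraries did not overlap in any genotype. The changes were −0.72 ± 0.14 in clone A (adjusted p = 0.000661), −0.49 ± 0.14 in clone B (adjusted p = 0.0220) and −1.10 ± 0.14 in parental cells (adjusted p = 1.34e-06).

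ABCA10, in a gene cluster on chromosome 17 with ABCA5, ABCA6, ABCA8 and ABCA9, was a low transcript. In clone A it had 2.93, 2.08 and 1.90 CPM in hypoxia, against 1.04, 0.706 and 1.24 CPM in normoxia. In clone B it had 1.71, 1.96 and 2.26 CPM in hypoxia, against 0.451, 1.05 and 0.492 CPM in normoxia. In parental cells it had 1.86, 2.01 and 2.11 CPM in hypoxia, against 0.558, 0.141 and 0.340 CPM in normoxia. The hypoxic libraries were all above the normoxic ones of their genotype, by 1.20 ± 0.37 in clone A (adjusted p = 0.0215), 1.56 ± 0.38 in clone B (adjusted p = 0.0114) and 2.53 ± 0.42 in parental cells (adjusted p = 6.00e-05).

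In clone A hypoxia also gave ABCA3 (0.41 ± 0.12) and ABCA2 (0.37 ± 0.13) higher and lower ABCB8, a mitochondrial member (−0.61 ± 0.18). Not called there were ABCG2 (0.11 ± 0.24), ABCC1 (−0.19 ± 0.08), ABCC2 (0.64 ± 0.26) and ABCC4 (0.35 ± 0.13). In clone B ABCC1 was lower (−0.48 ± 0.08, adjusted p = 0.000352) and ABCC2 higher (0.75 ± 0.23, adjusted p = 0.0365), while ABCG2 (−0.39 ± 0.21) and ABCC4 (−0.02 ± 0.13) were not called. In parental cells ABCG2 (−0.56 ± 0.16) and ABCC1 (−0.26 ± 0.08) were lower. There ABCC11 (1.36 ± 0.51), ABCA5 (0.90 ± 0.25), ABCA2 (0.69 ± 0.13) and ABCA3 (0.53 ± 0.12) were higher, and ABCC2 (0.26 ± 0.20) and ABCC4 (−0.06 ± 0.13) were not called.

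Without the 9 TIFM libraries in the fit, a setting chosen after seeing the data, 13 members were called in clone A, 7 in clone B and 14 in parental cells, against 5, 4 and 9. With any 1 library left out, ABCC3 held in clone A, ABCC1 in clone B, and ABCA2, ABCA3, ABCA10, ABCC3 and ABCG2 in parental cells. In clone A the other calls were fragile. ABCA2 lost its call without hypoxia replicate 1 or 3 or normoxia replicate 2 or 3, and ABCA10 lost it without hypoxia replicate 1 or normoxia replicate 1 or 2. ABCA3 lost its call without hypoxia replicate 1 or normoxia replicate 2 or 3. ABCB8 lost its call without normoxia replicate 1 (adjusted p = 0.0506, against up to 0.172 for ABCA2). The same applied in clone B. ABCC2 lost its call without each library except hypoxia replicate 2, and ABCC3 lost it without each library except hypoxia replicate 1. ABCA10 lost its call without hypoxia replicate 3 or normoxia replicate 1 or 3 (adjusted p up to 0.0731, against up to 0.154 for ABCC2). In parental cells 4 calls were fragile. ABCC1 lost its call without hypoxia replicate 2, and ABCC11 lost it without hypoxia replicate 2 or 3 or normoxia replicate 2 or 3. ABCA5 lost its call without normoxia replicate 2 (adjusted p = 0.0542, against up to 0.205 for ABCC11). Without normoxia replicate 1 the ABCC11 change in parental cells was 2.14.

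**Figure D4:**
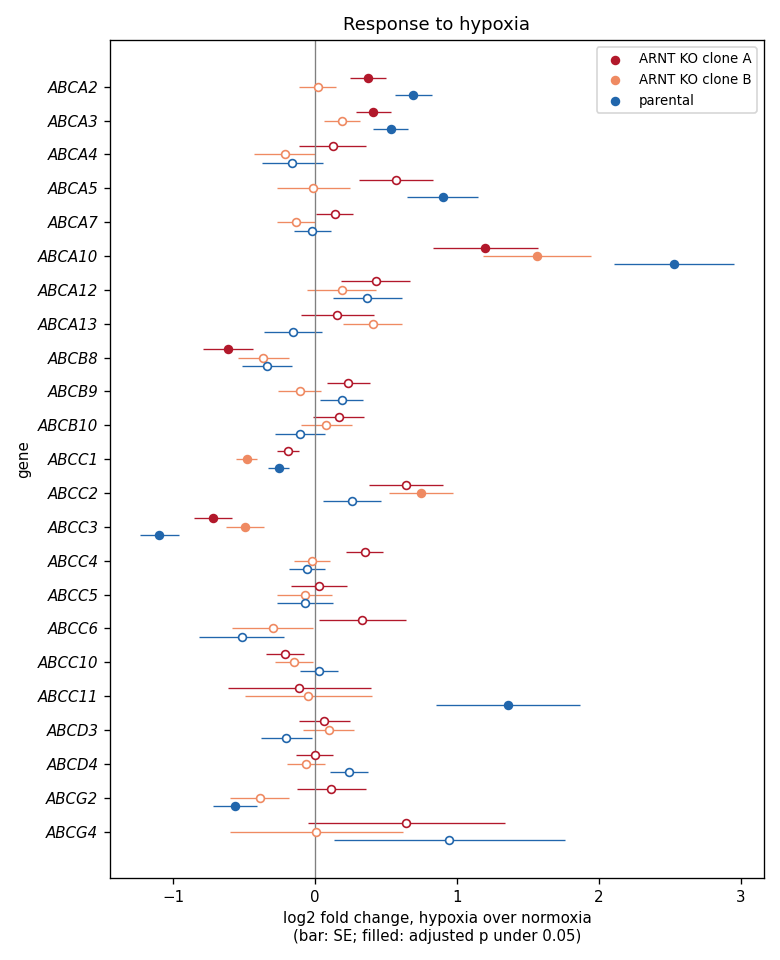
Log2 fold change in hypoxia over normoxia of the ABC transporter genes described here in clone A, clone B and parental cells. Bars are SE, and filled points have an adjusted p under 0.05. ABCA10 lies right of 0 and ABCC3 left of 0 with a filled point in all 3 genotypes.

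The hypoxia response of each clone was tested against that of parental cells. For clone A 0 members were higher and 0 lower by edgeR, beside 2.19% and 4.04% of all genes. At an unadjusted p under 0.05 there were 3, and DESeq2 called 0. For clone B 0 were higher and 1 lower, beside 1.49% and 3.24% of all genes. Of higher members edgeR gave 1 at an unadjusted p under 0.05, and DESeq2 called 1. The called member was ABCA2, linked to lipid handling in lysosomes, with a difference of −0.67 ± 0.18 (adjusted p = 0.0279).

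ABCA2 had 15.6, 15.2 and 16.6 CPM in hypoxia, against 14.5, 16.1 and 16.2 CPM in normoxia, in clone B. Parental cells had 22.95, 21.4 and 22.7 CPM in hypoxia, against 14.1, 14.6 and 12.8 CPM in normoxia. The libraries overlapped in clone B and not in parental cells. ABCA2 lost its call without clone B hypoxia replicate 1 or 2, clone B normoxia replicate 2 or 3, parental hypoxia replicate 1 or 3 or parental normoxia replicate 1 or 3 (adjusted p up to 0.0839). For the pumps the differences for clone A were ABCG2 (0.68 ± 0.29), ABCC4 (0.41 ± 0.18), ABCC2 (0.38 ± 0.33), ABCC3 (0.38 ± 0.19) and ABCC1 (0.06 ± 0.11), none called. Those for clone B were ABCC3 (0.60 ± 0.19), ABCC2 (0.48 ± 0.30), ABCG2 (0.17 ± 0.26), ABCC4 (0.04 ± 0.18) and ABCC1 (−0.23 ± 0.11), none called. Without the TIFM libraries 3 members were called for clone A and 6 for clone B.

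In TIFM many members were lower than in regular medium under hypoxia, in every genotype. Clone A had 1 higher and 12 lower, where 33% of all genes were higher and 34.2% lower. Clone B had 0 higher and 13 lower, where 25.9% of all genes were higher and 27.9% lower. Of higher members in clone B edgeR gave 0 at an unadjusted p under 0.05, and DESeq2 called 0. Parental cells had 1 higher and 13 lower, where 21.8% of all genes were higher and 20.4% lower. The member medians were −0.75 in clone A, −0.54 in clone B and −0.53 in parental cells, beside −0.03, −0.03 and −0.00 over all genes.

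ABCA2, ABCA7, ABCA12 and ABCC10 were lower in TIFM in all 3 genotypes. In clone A ABCC10 had 4.85, 7.45 and 6.07 CPM in TIFM, against 26.9, 21.4 and 18.2 CPM in regular medium. In clone B it had 7.81, 6.66 and 6.87 CPM in TIFM, against 20.5, 17.7 and 20.1 CPM in regular medium. In parental cells it had 12.2, 10.2 and 11.7 CPM in TIFM, against 24.6, 22 and 24.3 CPM in regular medium. No genotype showed an overlap between media. The changes of ABCC10 were −1.86 ± 0.15 in clone A (adjusted p = 3.48e-11), −1.45 ± 0.14 in clone B (adjusted p = 6.26e-09) and −1.06 ± 0.14 in parental cells (adjusted p = 1.28e-06).

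ABCA12, the lipid carrier of the skin barrier, changed by −2.08 ± 0.27 in clone A, −0.99 ± 0.25 in clone B and −1.14 ± 0.25 in parental cells. ABCA7 changed by −1.64 ± 0.14 in clone A, −0.66 ± 0.14 in clone B and −0.57 ± 0.13 in parental cells. ABCA2 changed by −0.99 ± 0.13, −1.03 ± 0.13 and −0.53 ± 0.13 in that order. The vitamin B12 carrier ABCD4 was the member that rose, by 0.43 ± 0.13 in clone A and 0.40 ± 0.13 in parental cells.

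Among the pumps, ABCG2 was not called in TIFM in clone A (0.06 ± 0.25) or clone B (0.10 ± 0.22) and fell in parental cells (−1.40 ± 0.16, adjusted p = 1.69e-07). ABCC3 fell in clone A (−1.42 ± 0.14) and clone B (−0.96 ± 0.14) and was not called in parental cells (0.09 ± 0.14). ABCC2 was not called in clone A (0.04 ± 0.26) or clone B (−0.39 ± 0.22) and fell in parental cells (−0.97 ± 0.21). ABCC4 fell in clone A (−0.89 ± 0.13), was not called in clone B (−0.10 ± 0.13) and fell in parental cells (−0.45 ± 0.13). ABCC1 was not called in clone A (−0.10 ± 0.08) and fell by small amounts in clone B (−0.20 ± 0.08) and parental cells (−0.20 ± 0.08).

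Other members lower in TIFM in clone A were ABCA5 (−2.07 ± 0.29), ABCA10 (−1.66 ± 0.40), ABCB10 (−1.06 ± 0.18), ABCA4 (−0.93 ± 0.26) and ABCD3 (−0.92 ± 0.18). In clone B they were ABCA13 (−2.26 ± 0.24), ABCA4 (−0.81 ± 0.22), ABCB8 (−0.77 ± 0.18), ABCB10 (−0.62 ± 0.18) and ABCC5 (−0.54 ± 0.20). In parental cells they were ABCC11 (−1.78 ± 0.54), ABCA13 (−1.56 ± 0.22), ABCA5 (−0.91 ± 0.25) and ABCB8 (−0.74 ± 0.18). All 13 calls in clone A held with any 1 library left out. The call of ABCD4 there ended with only the 6 libraries compared. Without TIFM replicate 1 the ABCA10 change was −2.42. In clone B 10 of 13 held. ABCC1 lost its call without regular-medium replicate 2 or 3 or TIFM replicate 1 or 3, and ABCC5 lost it without regular-medium replicate 3 or TIFM replicate 1 or 2 (adjusted p up to 0.181). In parental cells 10 of 14 held. ABCC1 lost its call without each library except regular-medium replicate 2, and ABCD4 lost it without regular-medium replicate 2 or TIFM replicate 2. ABCC11 lost its call without regular-medium replicate 3 or TIFM replicate 1. ABCC4 lost its call without TIFM replicate 2 (adjusted p = 0.0567, against up to 0.102 for ABCC1). Without TIFM replicate 2 the ABCC11 change in parental cells was −2.54.

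**Figure D5:**
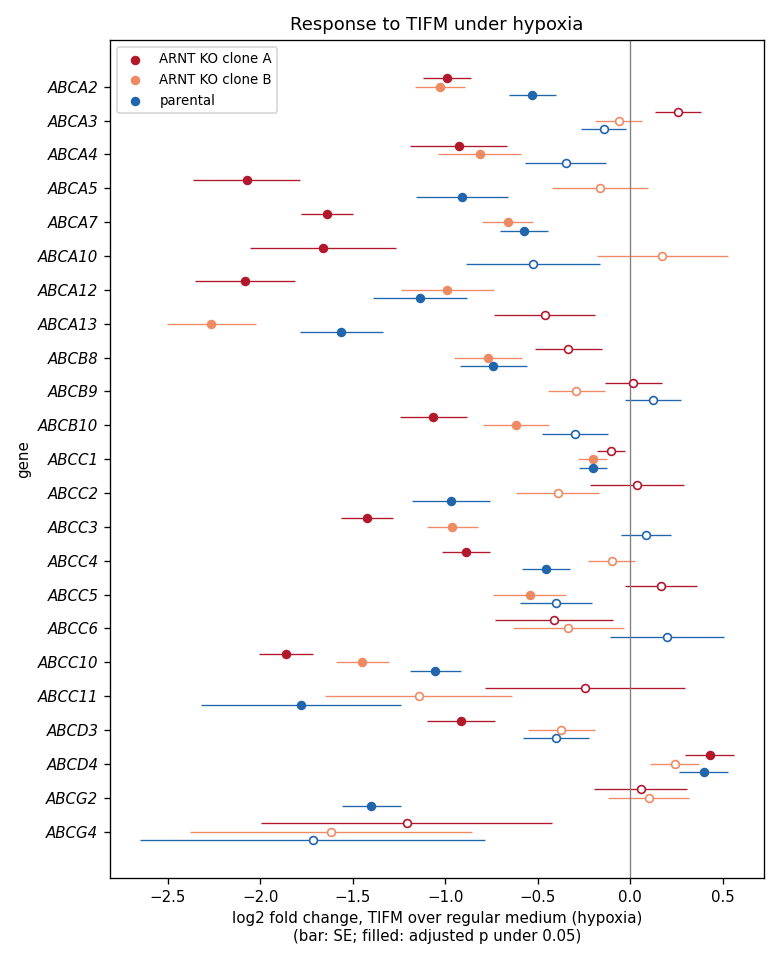
Log2 fold change in TIFM over regular medium, both in hypoxia, of the ABC transporter genes described here in clone A, clone B and parental cells. Bars are SE, and filled points have an adjusted p under 0.05. The filled points lie left of 0, except ABCD4 in clone A and in parental cells.

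The TIFM response of clone A differed from that of parental cells for 10 members, 3 higher and 7 lower, beside 19.3% and 19.6% of all genes. For clone B it differed for 2, 1 higher and 1 lower, beside 4.06% and 6.34%. ABCG2 and ABCC3 were called for both clones. ABCG2 differed by 1.46 ± 0.30 for clone A and 1.5 ± 0.27 for clone B (adjusted p = 0.000417 and 0.000807). From regular medium to TIFM its mean went from 1.19 to 1.22 CPM in clone A and from 1.70 to 1.81 CPM in clone B. In parental cells the mean went from 87.4 to 33.1 CPM. ABCG2 was thus low and not called for TIFM within either clone, and the positive differences follow from its fall in parental cells. ABCC3 differed by −1.51 ± 0.20 for clone A and −1.05 ± 0.19 for clone B (adjusted p = 2.28e-06 and 0.00114).

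In TIFM ABCC3 had 14.05, 16.5 and 19.2 CPM in clone A, 31.3, 30.6 and 23.6 CPM in clone B, and 30.5, 37.4 and 29.05 CPM in parental cells. In both clones these lay below all libraries of the same clone in regular medium, while parental cells overlapped between media. For clone A ABCA13 (1.10 ± 0.36) and ABCC2 (1.00 ± 0.33) were also higher. Neither ABCA13 nor ABCC2 was called for TIFM within clone A, and both fell in parental cells. Lower for clone A were ABCA5 (−1.17 ± 0.38), ABCA7 (−1.07 ± 0.19), ABCA12 (−0.95 ± 0.37), ABCC10 (−0.81 ± 0.20), ABCB10 (−0.77 ± 0.25) and ABCA2 (−0.46 ± 0.18). Not called were ABCC4 (−0.43 ± 0.18) and ABCC1 (0.10 ± 0.11) for clone A and ABCC2 (0.58 ± 0.31), ABCC4 (0.35 ± 0.18) and ABCC1 (−0.00 ± 0.11) for clone B.

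With only the 12 libraries compared in the fit, 4 members were called for clone A, and ABCA2, ABCA5, ABCA12, ABCA13, ABCB10 and ABCC2 lost their call. Without clone A TIFM replicate 3 there were 6. With any 1 library left out ABCA7, ABCC3, ABCC10 and ABCG2 held for clone A, and both calls held for clone B. ABCA2 lost its call without clone A regular-medium replicate 1 or 3, clone A TIFM replicate 1 or 2, parental regular-medium replicate 1, 2 or 3 or parental TIFM replicate 1 or 2, and ABCA5 lost it without clone A regular-medium replicate 1, clone A TIFM replicate 3 or parental TIFM replicate 1 or 3. ABCA12 lost its call without clone A regular-medium replicate 2 or 3, clone A TIFM replicate 2 or 3, parental regular-medium replicate 1, 2 or 3 or parental TIFM replicate 1, and ABCA13 lost it without clone A TIFM replicate 1. ABCB10 lost its call without clone A TIFM replicate 2 or 3. ABCC2 lost its call without clone A TIFM replicate 3 (adjusted p = 0.0729, against 0.237 for ABCA13).

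ABCG4, a sterol transporter known from brain, was called in none of the 19 comparisons by edgeR. It had an unadjusted p under 0.05 in 2 of them and was at most 0.524 CPM in a library.

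Genes tied to ABC transport were counted on lists of their own. The list counts were not tested against the shares of all genes called in the same comparisons, which are given above. For TIFM over regular medium those shares were 33% higher and 34.2% lower for clone A. Clone B had shares of 25.9% and 27.9%, and parental cells had 21.8% and 20.4%. The counts alone therefore do not show that a list stands out from all genes. Of 9 other ABC proteins 5 were tested, and TAP1 and TAP2 were listed at 0 in every library. Whether the counting caused this was not tested, so the levels of TAP1 and TAP2 are uncertain. The cholesterol exporters ABCA1 and ABCG1 were lower in both clones in normoxia, ABCA1 by −2.31 for clone A and −0.97 for clone B, and ABCG1 at −2.92 and −1.47. No gene of that list was higher in either clone in normoxia. In TIFM 4 were higher in clone A, 3 in clone B and 1 in parental cells, with ABCA1 at 1.10, 0.80 and 0.91 in that order. In clone B 1 gene of that list, ABCF3, was lower in TIFM, at −0.39.

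Of 20 transcription factors known to regulate ABC genes, 17 were tested. In normoxia 6 were higher and 3 lower in clone A, and 5 higher and 3 lower in clone B. PPARG, a lipid-sensing nuclear receptor, was lower, at −0.87 for clone A and −0.83 for clone B. In hypoxia over normoxia 5 were higher and 1 lower in clone A, 1 higher and 1 lower in clone B, and 6 higher and 2 lower in parental cells. Parental cells had RXRA (1.18), NR1I3 (1.16) and EPAS1 (1.02) higher. In TIFM 9 were higher and 3 lower in clone A, 5 higher and 3 lower in clone B, and 4 higher and 2 lower in parental cells. ATF4, a stress response factor, rose in TIFM by 1.65 in clone A, 1.35 in clone B and 1.32 in parental cells.

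Of 16 partners and scaffolds of ABC proteins, 13 were tested. In normoxia 1 was higher and 1 lower in clone A, and the same in clone B: EZR, which anchors membrane proteins to actin, was higher by 0.56 and 0.78, and TAPBP, a chaperone of peptide loading, lower, at −0.63 and −0.57. In TIFM 6 were higher and 4 lower in clone A, 2 higher and 3 lower in clone B, and 3 higher and 2 lower in parental cells. Of 15 uptake carriers 10 were tested. In normoxia 1 was higher and 3 lower in clone A, and 1 and 5 in clone B, with SLCO3A1, an organic anion carrier, at −2.12 and −1.93. SLCO4C1, of the same family, was higher in hypoxia by 1.86 in clone A, 1.95 in clone B and 2.91 in parental cells. In TIFM it was lower, at −2.98 in clone A, −2.89 in clone B and −3.46 in parental cells.

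Of 15 genes of glutathione synthesis and conjugation 13 were tested. In normoxia 1 was higher and 2 lower in clone A, and 1 and 0 in clone B. In TIFM 3 were higher and 1 lower in clone A, 1 higher and 8 lower in clone B, and 1 higher and 3 lower in parental cells. GSTT2B, a glutathione transferase, was lower in TIFM, at −1.52 in clone A, −1.95 in clone B and −1.99 in parental cells.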

How the data were processed

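PolyA RNA of 27 Panc1 libraries in 9 groups of 3 was sequenced. The table deposited by the authors holds raw read counts per gene. Per the submitters' processing notes, HISAT2, featureCounts and GRCh38 were used, with versions and strand setting not given in the sources used here. Totals were 26057022 to 38341713 counts per library, with a median of 31727174, and TMM factors were 0.777 to 1.08. The lowest factors were those of clone A in TIFM, at 0.8905, 0.833 and 0.777 for replicates 1, 2 and 3. Every other library had 0.925 or more. No 2 libraries were identical.

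Symbols were matched for 21383 of 21487 identifiers, GENCODE v29 gave coordinates and exon lengths for 21409, and promoters came from RefSeq.

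All libraries were fitted with edgeR 4.0.16 in R 4.3.3. filterByExpr (minimum count 10, minimum total 15) left 13943 genes, followed by TMM scaling, 1 coefficient per group and robust quasi-likelihood tests. The spread of a gene was estimated jointly over all 9 groups, whose biological coefficients of variation ran from 4.52% to 29.3%. An SE or p-value therefore does not rest on the spread of the compared groups alone. P-values were adjusted by Benjamini-Hochberg over all tested genes within each of 19 comparisons, and genes under 0.05 were called. SE is the absolute log2 fold change over the square root of F. The procedure was tested on simulated data.

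The members and gene lists were chosen with earlier results of these data known. Counts of members cover all that were tested, some of which are not reported singly here. Named in each comparison are the called members with the largest absolute log2 fold change, up to 10 in each direction, and ABCG2, ABCC1, ABCC2, ABCC3 and ABCC4 throughout. ABCB1, also on that list, was not tested. Of the other lists up to 3 called genes may be named. The alternatives were RLE scaling, no filter, at least 1 CPM in 3 libraries, DESeq2 1.42.0, a non-robust fit, a replicate block, only the libraries compared, and each library left out. Fits without TIFM libraries, or without clone A in TIFM, were added after seeing the data.

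Nothing in the labels says what a replicate number shares across groups. Deviations of same-numbered libraries correlated between −0.231 and 0.578. Every pair was above 0.1 in 2 of 15 comparisons, clone B against parental cells and clone B against clone A, both in TIFM. The replicate block gave 12 and 16 member calls there, the same numbers as without it.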

Additional observations from a re-analysis of the deposited data

Results flagged for a closer look

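Several members responded differently in a clone than in parental cells, by a test of the difference itself. For the TIFM response of clone A, 12% of the 25 tested members were higher and 28% lower, beside 19.3% and 19.6% of all genes. For that of clone B it was 4% and 4%, beside 4.06% and 6.34%. For the hypoxia response of clone B it was 0% and 4%, beside 1.49% and 3.24%. Values are log2 differences of the responses with SE and edgeR adjusted p.

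For TIFM, 2 members differed in both clones. ABCG2 differed by 1.46 ± 0.30, adjusted p = 0.000417, for clone A, and by 1.5 ± 0.27, adjusted p = 0.000807, for clone B. It was low and not called for TIFM within either clone, and it fell in parental cells. ABCC3 differed by −1.51 ± 0.20, adjusted p = 2.28e-06, for clone A, and by −1.05 ± 0.19, adjusted p = 0.00114, for clone B.

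For TIFM in clone A, ABCA13 (1.10 ± 0.36, adjusted p = 0.0163) and ABCC2 (1.00 ± 0.33, adjusted p = 0.0176) were also higher. Neither ABCA13 nor ABCC2 was called for TIFM within clone A, and both fell in parental cells. Lower for the TIFM response of clone A were ABCA5 (−1.17 ± 0.38, adjusted p = 0.0174), ABCA7 (−1.07 ± 0.19, adjusted p = 0.000113), ABCA12 (−0.95 ± 0.37, adjusted p = 0.0449), ABCC10 (−0.81 ± 0.20, adjusted p = 0.00230), ABCB10 (−0.77 ± 0.25, adjusted p = 0.0190) and ABCA2 (−0.46 ± 0.18, adjusted p = 0.0479). Replicates of clone A in TIFM had a biological coefficient of variation of 29.3%, and its part in these results was not tested. For hypoxia in clone B, ABCA2 (−0.67 ± 0.18, adjusted p = 0.0279) was lower. That call was lost in 8 of 12 fits with 1 library left out. Of the 10 calls for the TIFM response of clone A, 4 held in every such fit, those of ABCA7, ABCC3, ABCC10 and ABCG2.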

How the results depend on the processing

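Of 208 results, 204 kept direction and side of the threshold under RLE scaling, 199 with no filter, 198 under DESeq2 and 208 under the non-robust fit. With only the libraries compared 171 did, while 26 lost a call, 10 gained one and 1 changed sign. Over all fits with 1 library left out, 1233 values kept both, 155 lost a call, 9 gained one and 19 changed sign. Member counts moved most with the libraries in the fit, and the cause was not tested. Members that did not pass the filter on low counts were not compared.

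With only the libraries compared, hypoxia gave 11 members in clone A and 8 in clone B. Against parental cells it gave 14 for clone B in hypoxia and 9 for clone A in TIFM. Clone B against clone A gave 18 in normoxia and 6 in TIFM. The hypoxia response differed for 2 with clone A and 6 with clone B, and the TIFM response for 4 with clone A. DESeq2 gave 8 for hypoxia in clone A and 2 for the difference in hypoxia response of clone B.

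Without TIFM libraries, hypoxia gave 13 for clone A, 7 for clone B and 14 in parental cells, clone B against parental cells in hypoxia 15, and clone B against clone A 12 in normoxia and 11 in hypoxia. The hypoxia response then differed for 3 in clone A and 6 in clone B. Without clone A in TIFM, the TIFM response of clone B differed for 4.

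Leaving out 1 library gave 2 to 5 for hypoxia in clone A and 1 to 3 in clone B, 4 to 6 for clone B against clone A in normoxia and 10 to 20 in TIFM. The difference in hypoxia response of clone B ranged over 0 to 1, and that in TIFM response of clone A over 6 to 15.

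With the replicate block all counts stayed within 1.5 times, such as 8 for hypoxia in parental cells. The block ended the call of ABCC11 for hypoxia in parental cells (adjusted p = 0.0552) and of ABCA2 for the TIFM response of clone A (adjusted p = 0.0538), and added ABCC4 for hypoxia in clone A (adjusted p = 0.0469). The best match of 14 of 27 libraries had the same number.

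Signs turned only for uncalled values near 0. ABCC4 for hypoxia in clone B was 0.00470 with RLE, 0.00471 with DESeq2, 0.00626 with only the libraries compared, 0.00252 without TIFM libraries, and −0.0744 to 0.0254 with a library left out. ABCC1 for the TIFM response of clone B was 0.00599 with RLE, 0.0108 with no filter, 0.00595 with DESeq2, 0.0103 without clone A in TIFM, and −0.0293 to 0.0346 with a library left out. The other turns came with a library left out: ABCG2 for hypoxia in clone A (−0.00824 to 0.223), ABCG2 and ABCC2 for TIFM in clone A (−0.198 to 0.186 and −0.195 to 0.297), ABCC3 for TIFM in parental cells (−0.0329 to 0.159), ABCC4 for clone B against parental cells in TIFM (−0.288 to 0.0116), and ABCG2 and ABCC4 for the hypoxia response of clone B (−0.0298 to 0.504 and −0.0152 to 0.0844).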
